A study of Mus musculus with 38 samples.

Results

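The cytosolic ribosome is built from ribosomal RNAs and a set of ribosomal proteins. The transcripts of these proteins were measured in mouse adBNST (anterodorsal bed nucleus of the stria terminalis), a forebrain region that links the amygdala to the hypothalamus and is known for its role in anxiety. The members were all gene symbols of the count table made of Rpl or Rps and a number, with a short suffix allowed, plus Rplp0, Rplp1, Rplp2 and Rpsa, provided that their mean level over the 38 libraries was at least 1 CPM (counts per M counts of the library). That gave 78 genes of 25230, of which 46 encode proteins of the large subunit and 32 of the small subunit, spread over 19 chromosomes. A further 8 matching symbols lay under the limit.

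All mice were wild type (WT), and their age is not given in the labels. Stressed mice went through 6 weeks of varied mild stressors in random order, such as changes of light, bedding and housing, brief cold, restraint and swimming, and control mice did not. RNA with poly-A tails was sequenced from microdissected tissue, in 10 libraries for female controls, 9 for female stressed mice, 10 for male controls and 9 for male stressed mice. Total counts ran from 9.06 to 84.8 M. The 5 markers of the bed nucleus summed to 102 to 262 CPM and the 3 of GABA neurons to 1400 to 2520 CPM, with no marker at 0 in all libraries. The labels number the libraries within each group but do not say that each came from a separate animal, or whether tissue was pooled, so p-values measure the spread between libraries. Libraries are named by sex, condition and number, as in female control 1 (FC1 in the plots), with S for stressed and M for male.

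Ribosomal proteins are made in nearly equal numbers because a ribosome holds a single copy of most of them. In mammals their mRNAs begin with a run of pyrimidines, the terminal oligopyrimidine tract, through which the kinase mTOR and the RNA-binding protein Larp1 set how much of each mRNA is translated. Some members have known relatives or side roles. Rpl5 and Rpl11 can bind Mdm2 and stabilise p53, Rps27l and Rpl22l1 are paralogs of Rps27 and Rpl22, and Rplp0, Rplp1 and Rplp2 form the stalk that recruits elongation factors.

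Sequence around the annotated start sites was read from RefSeq's promoter table of GRCm38.p6, which held 58 of the 78 members and 12715 tested genes in all. The windows below are shown because the pyrimidine run was the most frequent in the members of the features searched. Each is 30 bases long, on the gene's strand, with the longest run of C and T within 50 bases of the start in capitals. They belong to Rpl4, Rpl14, Rpl22l1, Rpl35, Rpl38 and Rps27l, which are described in the stress comparisons, to Rps26, which differed by library number, and to Rpl15, one of the most constant members.
Rpl15, chr14:18270967-18270996, minus strand: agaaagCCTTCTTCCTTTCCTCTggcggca
Rpl14, chr9:120571501-120571530, plus strand: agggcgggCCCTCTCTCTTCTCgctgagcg
Rpl4, chr9:64173406-64173435, plus strand: agcgtggCCTTCTCCTCTCCCCgtcatggt
Rpl22l1, chr3:28805499-28805528, plus strand: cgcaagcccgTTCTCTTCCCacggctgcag
Rpl35, chr2:39005115-39005144, minus strand: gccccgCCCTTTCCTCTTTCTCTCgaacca
Rpl38, chr11:114668568-114668597, plus strand: ggaagcctcgTTCTTTCCCCgttctcttcg
Rps27l, chr9:66946054-66946083, plus strand: cccgcctccaCTCCTCTCCactcctccccg
Rps26, chr10:128626484-128626513, minus strand: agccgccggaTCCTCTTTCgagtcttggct
The run was 17 bases long in Rpl15 and 18 in Rpl35, and 9 in Rps27l and Rps26. A run of at least 9 was found in 47 of the 58 members (81.0%), against 3426 of 12657 other tested genes (27.1%). The search covered both sides of the start, so a run need not be the tract that begins the mRNA. Counted from the start, the run began at -22 in Rps27l, where it ended upstream, and at 26 in Rpl4. In the other windows shown it began between -8 (Rpl14) and 3 (Rps26). Short motifs were searched on both strands over the whole 300-base windows. A gene counted once if any of its windows held the motif. CCGGAAG was in 39.7% of the members and 17.1% of all 12715 genes, TCTCGCGA in 17.2% and 2.1%, AAGATGG in 15.5% and 7.79%, TATAAA in 12.1% and 9.34%, and GGGCGG in 65.5% and 64.6%. A match describes letters in the window and is not a measured binding site.

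The ribosomal protein transcripts together took 0.752% to 2.21% of the counts of a library, with a median of 1.01%. Control females ranged from 0.86% to 1.77% (median 1.01%, mean 1.14% ± 0.333 SD, n = 10), and stressed females from 0.868% to 2.21% (median 1.03%, mean 1.27% ± 0.488 SD, n = 9). Control males ranged from 0.763% to 1.88% (median 1.05%, mean 1.14% ± 0.314 SD, n = 10), and stressed males from 0.752% to 1.08% (median 0.91%, mean 0.914% ± 0.106 SD, n = 9). The groups overlapped throughout, and stressed males had the lowest median and the narrowest range. In bulk tissue, fewer cells of a type and less RNA per cell cannot be told apart.

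**Figure D1:**
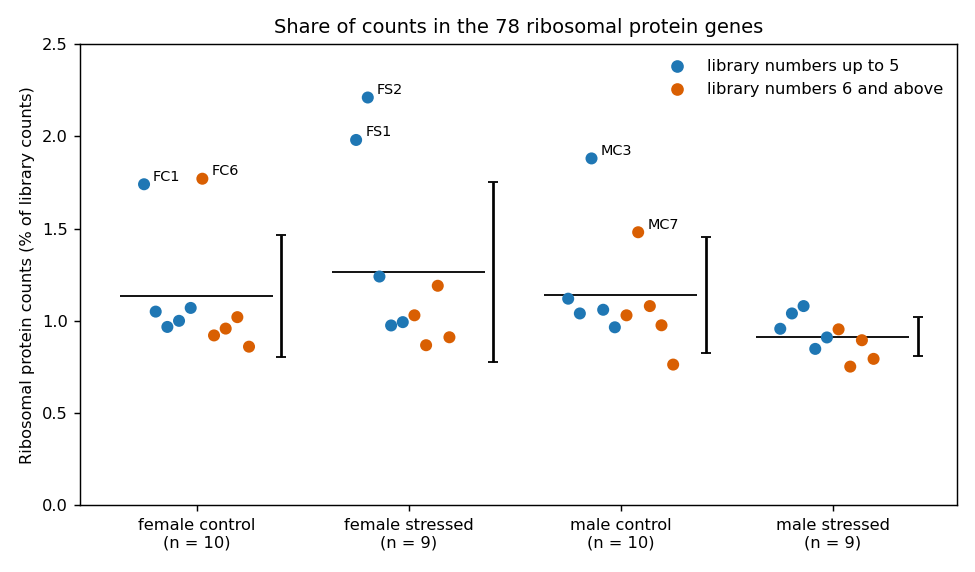
Share of all counts taken by the 78 ribosomal protein genes (y axis, percent) in each library by group (x axis), coloured by library number. Horizontal lines are group means and the bars beside them 1 SD. The 5 highest libraries lie between 1.74% and 2.21% in 3 groups, and stressed males, which hold none of them, lie between 0.752% and 1.08%.

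The highest shares belonged to libraries that also stood apart in other transcripts. Libraries 1 and 6 of control females, 3 of control males, and 1 and 2 of stressed females had 9030 to 13300 CPM of Mbp, the myelin basic protein transcript. They had been singled out for their myelin transcripts in earlier results and are called myelin-rich here. In that order their ribosomal protein shares were 1.74%, 1.77%, 1.88%, 1.98% and 2.21%, while the other 33 libraries had 0.752% to 1.48%. The summed level of the 10 oligodendrocyte markers was 20800 to 26200 CPM in these 5 and 4690 to 16600 CPM in the others. That of 7 striatal markers was 2070 to 4170 CPM against 583 to 3220, and that of 7 neuronal markers 4850 to 7160 CPM against 3820 to 5000, with no marker of these lists at 0 throughout. Astrocyte and bed nucleus markers also had higher medians in the 5 (2390 against 2030 CPM and 237 against 141). Medians were lower for GABA neuron (1460 against 1940 CPM), septal (38.1 against 75.3), choroid plexus (52.1 against 95.9) and endothelial markers (170 against 233). Microglial, ependymal and fibroblast markers were lower too. Male control 7, with the next highest share of 1.48%, had only 1950 CPM of Mbp. The ribosomal RNA precursor Rn45s, which is not a member, took 1.09%, 4.81%, 2.17%, 1.47% and 2.14% of counts in the 5. In the other libraries it took 0.121% to 0.311% among those numbered up to 5, apart from 1.28% in male stressed 5, and 0.754% to 2.79% among those numbered 6 and above. The parts of tissue makeup and of this precursor in the ribosomal protein levels were not tested. Without the 5 libraries the mean share was 0.981% ± 0.0697 (SD, n = 8) in control females, 1.03% ± 0.139 (n = 7) in stressed females and 1.06% ± 0.188 (n = 9) in control males, and stressed males stayed at 0.914%.

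Across libraries the members were high and low together. For 75 of the 78 the highest library was one of those 5, and for 65 all 5 were among the 6 highest. The exceptions were Rpl7l1 and Rps4l, highest in male control 7, and Rpl22l1, highest in male control 5. These 3 are relatives of the core proteins Rpl7, Rps4x and Rpl22. The counts of members highest in the 5 libraries were not made over all tested genes. They do not show a trait particular to the members. The highest library exceeded the lowest by 1.6 to 16.8 times (median 3.77). The SD of a member's log2 CPM over libraries had a median of 0.46, against 0.34 for all tested genes.

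**Figure D2:**
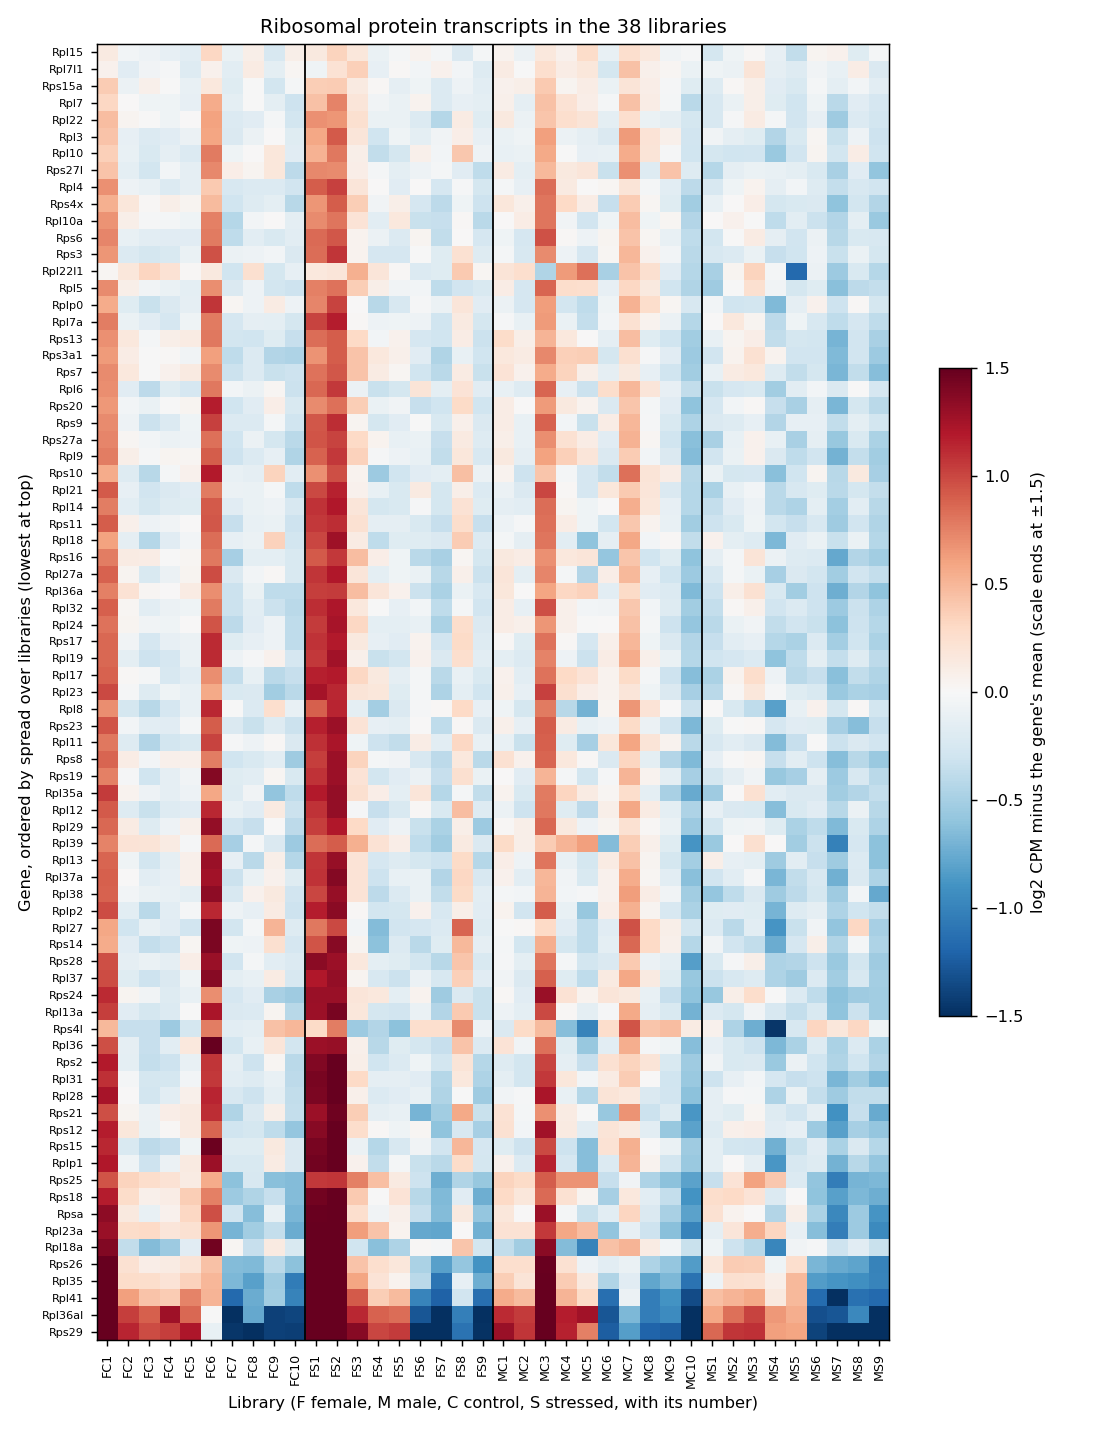
Level of 77 of the 78 members (rows, from the smallest spread at the top to the largest at the bottom) in each of the 38 libraries (columns, by group), as log2 CPM minus the gene's mean. The 5 myelin-rich libraries form dark red columns over most members, and in the bottom rows, from Rps26 to Rps29, most libraries numbered 6 and above are blue.

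The most constant members were Rpl15, Rpl7l1 and Rps15a, with SDs of log2 CPM of 0.16, 0.16 and 0.18. Rpl15, a large subunit protein, ranged from 65.78 CPM in male stressed 5 to 107.2 in female stressed 2. The most variable were Rps29, Rpl36al and Rpl41, with SDs of 1.36, 1.20 and 1.03. Rps29, a zinc-binding protein of the small subunit, ranged from 31.19 CPM in male stressed 7 to 525.3 in female stressed 2.

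Levels can be compared between genes only per transcript length, here the median length of a gene's protein-coding transcripts in GENCODE M21. On that scale the highest were Rplp1 with 754.6, Rps24 with 602.0 and Rps15 with 532.6 CPM per kilobase, and the median member had 172.9. Between 50 and 300 CPM per kilobase lay 61 of the 78. The lowest were Rpl36al with 11.21, Rps27l with 13.18 and Rpl7l1 with 17.37, all of them paralogs of other members or of Rps27. Stalk proteins differed widely, since Rplp2 had 290.5 and Rplp0 94.23 CPM per kilobase beside the value for Rplp1. Rps15a and Rps20 were low on this scale with transcript lengths of 5130 and 3706 bases, far over the members' median of 778.75.

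**Figure D3:**
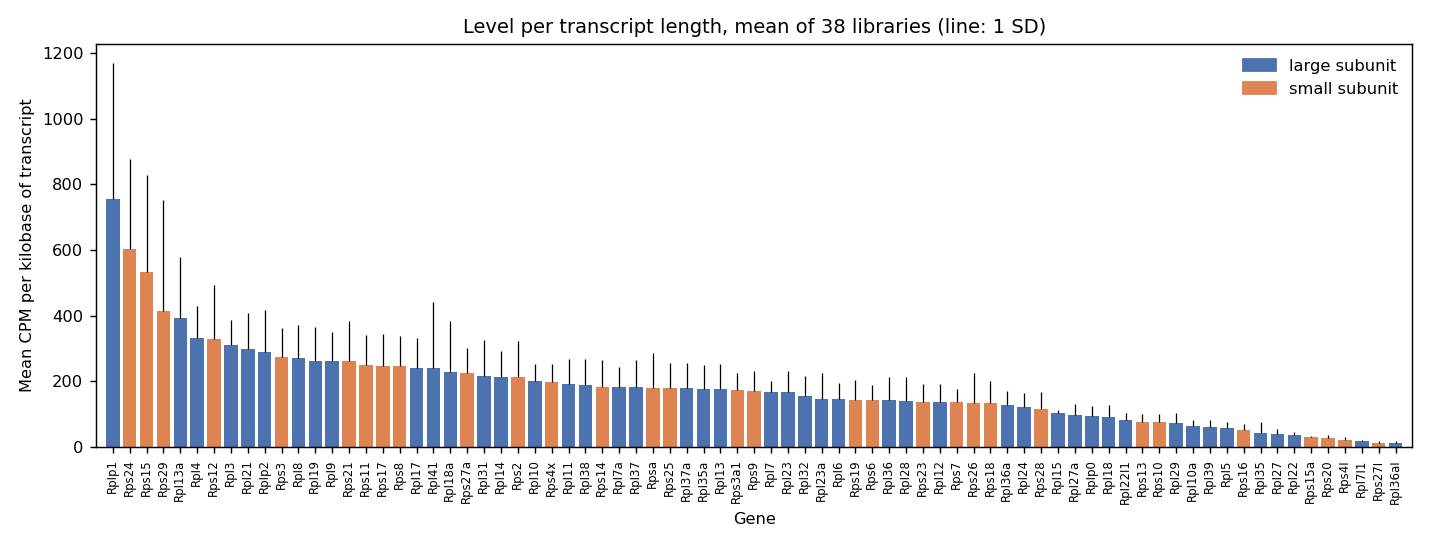
Mean level of 77 of the 78 members over 38 libraries per kilobase of transcript (y axis, CPM per kilobase), in descending order, with large subunit genes in blue and small subunit genes in orange. Lines above the bars show 1 SD over libraries, and the order runs from Rplp1 at 754.6 to Rpl36al at 11.21.

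The counting limits what these levels mean for single genes. Ribosomal protein genes have many processed copies in the mouse genome, and in 29 members more than 50% of the transcript's 50-base words also occur in another gene's transcripts (median member 41%). How reads that fit several genes were counted is not given in the sources used here. The symbols under the limit include core proteins. Rpl26 had 0 counts in all 38 libraries, where 3 counts, the limit that a count of 0 allows, would be 0.0354 CPM at the greatest depth and 0.331 CPM at the smallest. Rpl30 averaged 0.113 CPM, Rpl34 0.365 and Rps27 0.676, the last just outside the limit, while Rps27l with 7.08 CPM was the lowest member. Of their 50-base words, 47.4% for Rpl26, 29.7% for Rpl30, 25.8% for Rpl34 and 63.1% for Rps27 were shared, and the part of this in the low counts was not tested. The other 4 were Rpl10l with 0 counts in every library, Rpl3l with 0.559 CPM, Rpl32l with 0.0575 and Rpl39l with 0.0231.

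In males, every ribosomal protein transcript had a lower estimate after stress, and none passed the test. Changes are log2 values ± SE from the quasi-likelihood test of edgeR, with Benjamini-Hochberg adjusted p over all 16309 genes in the test and a threshold of 0.05. The model held group only, without a term for library number. The 78 changes ran from -0.49 to -0.15 with a median of -0.34. All genes tested had a median of -0.02, and 45% of them were above 0. Members were high and low together across libraries, so their like signs are not 78 separate observations. Of all genes, 0 passed (0.0%), 655 had an unadjusted p under 0.05, and the members' adjusted p in edgeR were 0.863 or more. At an unadjusted p under 0.05, 14 members were lower and 0 higher, against 2.5% of all genes lower. DESeq2 and limma's voom also called 0 genes. No member's groups were free of overlap, and over all genes 0.00613% were.

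Rps27l, which p53 induces, had the smallest p. Its level ran from 5.437 to 11.08 CPM in control males (median 7.572) and from 4.574 to 6.395 CPM in stressed males (median 6.107). All 9 stressed libraries lay under the control median, and the ranges overlapped. The change was -0.41 ± 0.15 (unadjusted p = 0.0101, edgeR adjusted p = 0.863). Rpl38, a large subunit protein known for its part in translating Hox mRNAs, ran from 45.29 to 100.3 CPM in controls (median 63.76) and from 38.15 to 63.26 CPM in stressed males (median 49.7), a change of -0.49 ± 0.21 (edgeR adjusted p = 0.863). Rpl22l1 ran from 30.5 to 75.62 CPM (median 49.66) and from 18.97 to 53.7 CPM (median 36.38), a change of -0.41 ± 0.16 (edgeR adjusted p = 0.863). Its lowest value belonged to male stressed 5, a library that also held choroid plexus transcripts (2880 CPM of Ttr), and without it the change was -0.32. Rpl7 ran from 144.3 to 260.4 CPM (median 203.4) and from 144.8 to 202.7 CPM (median 169.2), a change of -0.27 ± 0.12 (edgeR adjusted p = 0.863). In each of these the groups overlapped, with the highest controls above every stressed library.

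Estimates in males were below 0 in both sets of library numbers and nearer to 0 without the myelin-rich libraries. All 78 members were below 0 among libraries numbered up to 5 (median -0.36) and among those numbered 6 and above (median -0.33). Without the 5 libraries, 77 were below 0 with a median of -0.22, and without those and male control 7, also 77 with a median of -0.16. Leaving out male control 3 alone moved the median to -0.21. The count of members lower at an unadjusted p under 0.05 went from 14 to 2 without male control 7 and to 29 without male control 10. Of the marker lists, the 7 choroid plexus genes were all above 0 (median 1.65, with 5 at an unadjusted p under 0.05, and 0.27 without male stressed 5), as were the 4 septal ones (median 0.41). The 7 striatal markers were all below 0 (median -0.32), as were 9 of 10 oligodendrocyte markers (median -0.18). In edgeR 0 markers passed in males, and their part in the members' estimates was not tested.

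**Figure D4:**
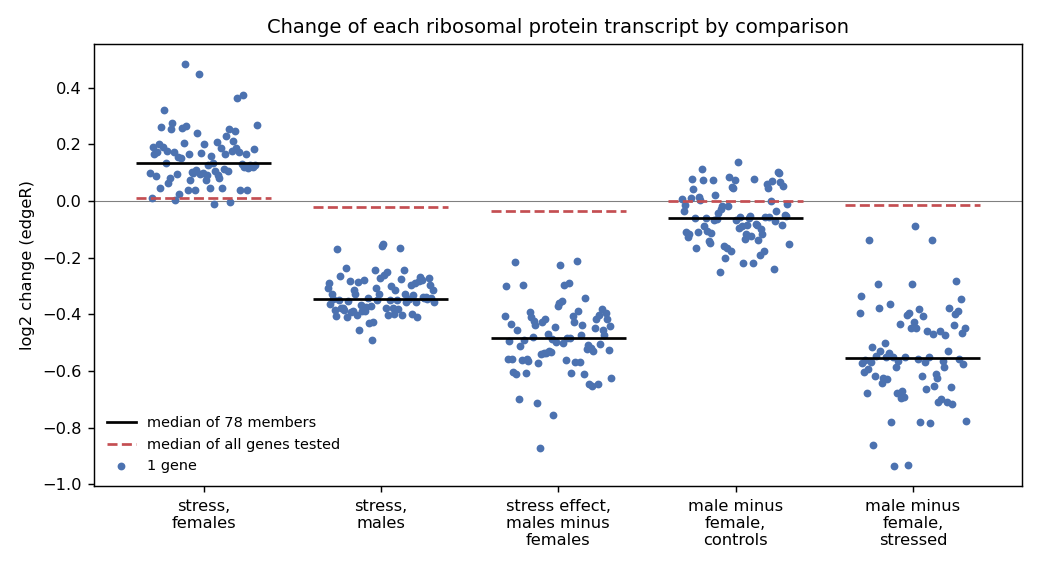
log2 change of each of the 78 members (points) in 5 comparisons, with the members' median (black line) and the median of all genes tested (dashed red line). The medians are 0.13 for stress in females, -0.34 for stress in males, -0.49 for their difference, -0.06 for males against females in controls and -0.55 in stressed mice, and 0 members passed in any of them.

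In females, most estimates lay slightly above 0 and none passed the test. The changes ran from -0.01 to 0.48 with a median of 0.13 and 76 of 78 above 0. All genes had a median of 0.01, with 53.6% above 0. Again 0 genes of all tested passed (0.0%), with 308 at an unadjusted p under 0.05, and 0 members were at that level in either direction, against 0.932% of all genes higher and 0.957% lower. DESeq2 and voom also called 0. No member's control and stressed ranges were apart, as for 0.0% of all genes. Of the marker lists, the 10 oligodendrocyte (median -0.18) and 7 endothelial genes (median -0.19) were all below 0, and the 7 striatal (median 0.16), 7 ependymal (median 0.31) and 4 septal genes (median 0.37) all above 0. None of these markers passed in edgeR, and their part in the members' estimates was not tested.

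Rpl4, a large subunit protein, had the smallest p among those higher. It ran from 405.9 to 798.5 CPM in control females (median 441.4) and from 411.9 to 1011 CPM in stressed females (median 498.2), a change of 0.24 ± 0.16 (edgeR adjusted p = 1). The highest stressed values lay in the myelin-rich libraries, and without the 5 the change was 0.11. Rpl35 had the largest estimate, 0.48 ± 0.39, with 15.79 to 110.3 CPM in controls (median 38.59) and 15.32 to 142.8 CPM in stressed females (median 33.93), so that its median was lower in the stressed group. Rpl17 and Rpl35a had estimates of 0.26 ± 0.20 and 0.26 ± 0.21. The 2 members below 0 were Rps10 (-0.0098 ± 0.19) and Rps20 (-0.0043 ± 0.17).

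The direction in females was not the same in the 2 library sets. Among libraries numbered up to 5, which hold female stressed 1 and 2 and female control 1, all 78 members were above 0 with a median of 0.39. Among those numbered 6 and above, which hold female control 6, 77 were below 0 with a median of -0.25. The difference between the sets was not tested. Leaving out female stressed 2 alone put 46 members below 0 (median -0.0092), leaving out female control 6 raised the median to 0.27, and without the 5 libraries 15 were below 0 with a median of 0.05. With voom's quality weights 37 were below 0.

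The difference between the sexes in the stress effect (males minus females) was below 0 for all 78 members, and none passed. The estimates ran from -0.87 to -0.21 (median -0.49). All genes had a median of -0.04, with 44.2% above 0. Called were 0 genes (0.0%) by edgeR, with 736 at an unadjusted p under 0.05, and 0 by DESeq2 or voom. At an unadjusted p under 0.05, 19 members were lower, against 2.42% of all genes. Rpl14, a large subunit protein, had the smallest p with -0.61 ± 0.27 (edgeR adjusted p = 0.845). Rpl7 (-0.37 ± 0.17), Rpl22l1 (-0.49 ± 0.22) and Rpl3, whose protein lies near the site of peptide bond formation (-0.44 ± 0.20), came next. The median was -0.76 among libraries numbered up to 5 and -0.08 among those numbered 6 and above, and -0.28 without the 5 libraries. Leaving out female stressed 2 alone gave -0.31. The count at an unadjusted p under 0.05 ran from 1 without male control 3 to 52 without female control 6. All 7 striatal (median -0.48) and 7 ependymal markers (median -0.42) were below 0 in this difference, and all 7 endothelial (median 0.43) and 7 choroid plexus markers (median 1.49) above 0, with 0 passed and their part not tested. Averaged over the sexes, the stress estimate had a median of -0.09 with 73 members below 0, and 48.4% of all genes were above 0. The members' median was -0.17 without female stressed 2 and -0.03 without female control 6. Of all tested genes 0 passed (0.0%), with 239 at an unadjusted p under 0.05 and 0 by DESeq2 or voom.

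Between the sexes the estimates were near 0 in control mice and below 0 in stressed mice, in comparisons that share their libraries with those above. In controls the male minus female changes ran from -0.25 to 0.14 (median -0.06), 54 members were below 0 and 0 passed, while 0.0674% of all genes did. Above 0 were 50.5% of all genes. Leaving out the 5 libraries put the median at 0.10 with 5 below 0, and leaving out female control 6 or male control 3 alone put it at 0.06 or -0.17. In stressed mice all 78 estimates were below 0, from -0.94 to -0.09 (median -0.55, all genes -0.01 with 47.7% above 0). None passed in edgeR, where the smallest adjusted p of a member was 0.378 and 0.0858% of all genes passed, and 67 members had an unadjusted p under 0.05, against 8.0% of all genes lower at that level. No member's ranges were apart, as were those of 0.0674% of all genes.

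Rps19, a small subunit protein mutated in Diamond-Blackfan anaemia, ran from 82.09 to 254.5 CPM in stressed females (median 98.53) and from 70.75 to 100.6 CPM in stressed males (median 86.94), a change of -0.63 ± 0.21 (edgeR adjusted p = 0.378). Rplp1 ran from 257.7 to 1057 CPM and from 186.1 to 341.9 CPM, with medians of 333.4 and 289.5 and a change of -0.78 ± 0.28 (edgeR adjusted p = 0.378). For both genes the medians were closer than the highest libraries were. Without female stressed 2 the members' median was -0.38 and those at an unadjusted p under 0.05 were 23, and without the 5 libraries the median was -0.16 with 76 below 0. Among the marker lists, 2 of the 7 choroid plexus genes were higher in stressed males in edgeR, Ttr (adjusted p = 0.0164) and Kcnj13 (adjusted p = 0.045), and all 7 were above 0 (median 1.83, and 0.48 without male stressed 5). The 7 striatal markers were all below 0 (median -0.56) and the oligodendrocyte markers evenly divided (5 of 10 below 0, median -0.04), with 0 passed in either list. Their part in the members' estimates was not tested, and without male stressed 5 the members' median was -0.53. The X-linked members Rpl10, Rpl36a, Rpl39 and Rps4x had medians of -0.0038 in controls and -0.47 in stressed mice, close to those of all members.

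The other panel members had estimates above 0 in females and below 0 in males and did not pass in any stress or sex comparison. Rpsa, which also serves as a laminin receptor, had stress estimates of 0.27 ± 0.30 in females and -0.36 ± 0.30 in males. The Mdm2-binding proteins had 0.10 ± 0.17 and -0.35 ± 0.17 for Rpl5 and 0.19 ± 0.21 and -0.36 ± 0.21 for Rpl11, in the same order. Rps6, the substrate of S6 kinase, had 0.12 ± 0.17 and -0.27 ± 0.17, and Rps3, which lies near the mRNA entry site, 0.12 ± 0.17 and -0.28 ± 0.17. Rpl13a, known for silencing inflammatory mRNAs, had 0.17 ± 0.24 and -0.39 ± 0.24. Rplp0, often used as a reference gene, had 0.04 ± 0.18 and -0.25 ± 0.18. Rpl22 had 0.06 ± 0.13 and -0.24 ± 0.13, and its paralog Rpl22l1 0.08 ± 0.16 in females. Rpl10, next to the site where tRNAs enter, had 0.10 ± 0.14 and -0.31 ± 0.14, and Rps4x and Rpl39 had -0.34 ± 0.16 and -0.43 ± 0.20 in males. For Rps29 and Rpl41 the errors were far wider, with 0.37 ± 0.57 and 0.45 ± 0.45 in females and -0.27 ± 0.57 and -0.30 ± 0.46 in males.

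Members have short transcripts, and other short transcripts leaned the same way. The median length was 778.75 bases for the members, 60 of them under 1000, and 2667.75 over the tested genes with a length. The 1378 other tested genes under 1000 bases had median changes of 0.07 for stress in females, -0.19 in males, -0.27 for their difference and -0.24 between the sexes in stressed mice. For the 14580 genes of 1000 bases or more these were 0.0050, -0.0099, -0.02 and 0.0018. Across genes within a library, the centred level was set against length by rank correlation. The correlation was -0.393 to -0.224 in the 5 myelin-rich libraries and -0.373 in male control 7. These are the 6 libraries with the highest ribosomal protein shares. In the others it ran from -0.17 to 0.345. By group it was -0.264 to 0.234 in control females and -0.393 to 0.224 in stressed females. Control males had -0.373 to 0.268 and stressed males 0.0409 to 0.345. The part of transcript length in the members' changes was not tested.

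The largest differences among the members followed the library number, whose meaning the labels do not give. Every group has 4 or 5 libraries on each side of a split between numbers up to 5 (20 libraries) and 6 and above (18), a split taken from earlier results of these data. With group in the model, 34 members were lower and 1 higher in the second set in edgeR, so 44.9% were called in either direction beside 45.5% of all genes, and 43.6% were lower beside 22.3% of all genes. The members' median was -0.26, with a range of -2.57 to 0.52. Without the 5 libraries 36 were lower and 11 higher.

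Rps29 differed most. It ran from 165.3 to 525.3 CPM in libraries numbered up to 5 (median 232.3) and from 31.19 to 101.3 CPM in the rest (median 40.41), a change of -2.57 ± 0.14 (edgeR adjusted p = 5.92e-17). The sets did not overlap, which held for 2 members, the other being Rpl36al, and for 0.123% of all genes. Rpl36al, an autosomal paralog of Rpl36a, ran from 9.086 to 21.02 CPM and from 1.788 to 6.185 CPM (medians 12.82 and 2.557), a change of -2.26 ± 0.13 (edgeR adjusted p = 1.72e-16). Rpl41, which encodes one of the shortest known proteins, ran from 106.8 to 495.6 CPM and from 34.44 to 138.3 CPM (medians 138.0 and 45.81), a change of -1.74 ± 0.19 (edgeR adjusted p = 5.68e-09). Only female control 6 of the second set, at 138.3 CPM, reached into the range of the first.

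Rpl35, Rps26 and Rpl23a were also lower, by estimates of -1.34 ± 0.19, -1.15 ± 0.17 and -1.05 ± 0.14 (edgeR adjusted p of 6.42e-07, 1.18e-06 and 3.27e-07). Exons of other genes on the opposite strand cover 66.2% of the exonic bases of Rpl35 and 59.7% of those of Rpl23a. Same-strand exons of another gene cover 24.5% of Rpl36al, while Rps29, Rpl41 and Rps26 have no such overlap. Whether counting used the strand is not given, and the part of overlap in these differences was not tested. Rpl39, Rpsa, Rps4x, Rpl5, Rpl4 and Rpl22 of the panel were lower by smaller amounts, from -0.73 for Rpsa to -0.25 for Rpl22 (edgeR adjusted p of 0.001 and 0.0141). The 1 higher member was Rps4l, a relative of Rps4x, with 7.143 to 33.3 CPM in the first set (median 15.46) and 17.55 to 37.74 CPM in the second (median 23.93), a change of 0.52 ± 0.14 (edgeR adjusted p = 0.00219). Rpl3 did not pass (-0.05 ± 0.10), nor did Rpl15 (0.0036 ± 0.05), Rpl10 (0.10 ± 0.10), Rpl27 (0.21 ± 0.15), Rpl8 (0.10 ± 0.15), Rps10 (0.09 ± 0.13) or Rps14 (0.09 ± 0.16).

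**Figure D5:**
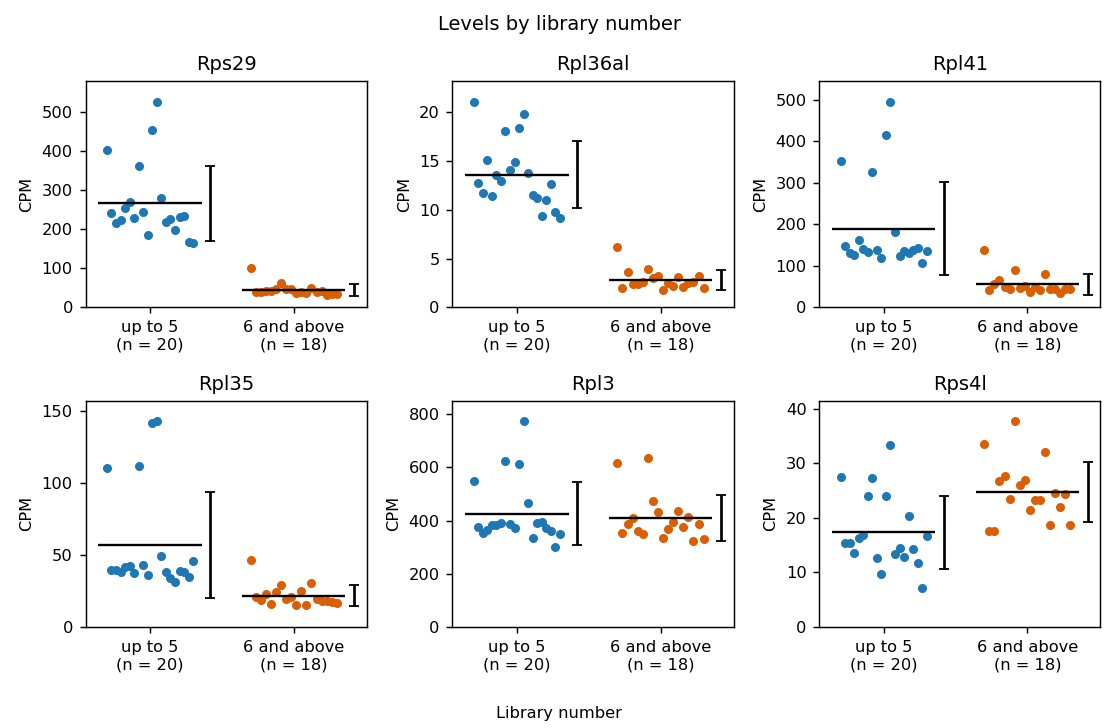
CPM of 6 members (y axes, starting at 0) in libraries numbered up to 5 (blue, n = 20) and 6 and above (orange, n = 18), with means as lines and 1 SD as bars. Rps29 and Rpl36al do not overlap between the sets, Rpl41 and Rpl35 are lower in the second set, Rps4l is higher, and Rpl3 did not pass the test.

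The balance of the subunits also differed by library number. The counts of large subunit genes were 1.41 to 1.49 times those of small subunit genes in libraries numbered up to 5 and 1.54 to 1.65 times in the others, with no overlap, while the group means lay at 1.52 or 1.53. The share of small subunit counts that came from Rps29 was 5.25% ± 0.408 (SD, n = 20) in the first set and 1.16% ± 0.0845 (n = 18) in the second. With Rps29 left out the ratio was 1.52 ± 0.0167 in the first set (1.49 to 1.56) and 1.64 ± 0.0273 in the second (1.56 to 1.67). The means still differed by more than the SDs, but the rounded ranges met at 1.56. The median change by library number was -0.24 for the large subunit members and -0.29 for the small subunit members. Of the myelin-rich libraries, female control 6 had the lowest ratio of the second set, 1.54, where the other 17 ran from 1.58 to 1.65. The other 4 had 1.44 to 1.46, where the remaining 16 of the first set ran from 1.41 to 1.49. Rn45s took 0.223% of counts in the median library of the first set and 1.33% in the second. The 7 striatal and 10 oligodendrocyte markers were all lower in the second set in edgeR (medians -0.88 and -0.92), beside 22.3% of all genes. The 7 ependymal and 4 septal markers were all higher (medians 1.29 and 0.64), beside 23.2% of all genes. The part of tissue makeup was not tested.

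Other genes of ribosome production and translation were read from lists. In the stress and sex comparisons 0 genes of any of these 6 lists passed in edgeR. The 78 mitochondrial ribosomal proteins, which serve a separate ribosome, had medians of 0.06 for stress in females and -0.21 in males, with 75 of 78 below 0 in males. Mrpl44 (-0.24 ± 0.07) and Mrpl13 (-0.38 ± 0.13) had the smallest p there (edgeR adjusted p = 0.863). The 10 hosts of small nucleolar RNAs had medians of 0.22 and -0.25, with Snhg1 at -0.24 ± 0.13 in males. Some hosts are known for transcripts that also begin with pyrimidine tracts. A list of 23 genes with such tracts, translation factors and others such as Hnrnpa1, Npm1 and Vim, had medians of 0.10 and -0.10. In males Eef1b2 had -0.28 ± 0.13 and Eef1a1 -0.16 ± 0.08.

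Further lists covered the machinery that makes or regulates ribosomes. The 46 tested genes of ribosome biogenesis and RNA polymerase I had medians of -0.0038 in females and -0.07 in males, with Polr1d at -0.35 ± 0.12 and Mrto4 at -0.28 ± 0.10 in males. The 20 genes of mTOR and regulators of these mRNAs had -0.0094 and 0.0033, with Maf1, a repressor of RNA polymerase III, at -0.20 ± 0.10 and Rictor at 0.26 ± 0.15 in males. The 30 tested initiation and elongation factors had 0.06 and -0.11, with Eif2b3 at 0.24 ± 0.10 in females and Eif2b5 at -0.25 ± 0.10 in males. The ribosome-associated Rack1 had 0.06 ± 0.15 in females and -0.27 ± 0.15 in males.

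By library number genes were called in each of these lists, and their counts are read beside the 23.2% of all genes higher and 22.3% lower in the second set in edgeR. Of the 20 genes of the mTOR list 8 were higher and 5 lower, with Rptor (0.49 ± 0.07), Mtor (0.41 ± 0.06) and Mlst8 (0.31 ± 0.05), parts of the mTOR complex, among the higher. Of the 46 biogenesis genes 16 were higher and 11 lower, with Polr1a at 0.35 ± 0.06 and Grwd1 at 0.52 ± 0.09 but the nucleolar proteins Ncl at -0.32 ± 0.05 and Fbl at -0.38 ± 0.07. Of the 10 small nucleolar RNA hosts 5 were lower, with Gas5 at -0.76 ± 0.11, and 0 higher. Of the 78 mitochondrial ribosomal proteins 16 were lower and 2 higher. In the list of 23 translation factors and other genes with pyrimidine tracts 9 were lower and 2 higher. Among these were Hnrnpa1 (-1.12 ± 0.11), Npm1 (-0.39 ± 0.06) and Vim (0.75 ± 0.08). For the 30 initiation and elongation factors the counts were 12 lower and 6 higher, with Eif1 at -0.67 ± 0.08. Rack1 was higher (0.24 ± 0.10, edgeR adjusted p = 0.0428).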

How the data were processed

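The values deposited by the authors were unscaled counts, 1 column for each library. Tools listed per the submitters' processing notes were STAR, featureCounts and DESeq2, on mm10. Their versions and annotation, the strand setting and the handling of reads that fit several genes are not given in the sources used. Libraries held 9.06 to 84.8 M counts (median 27.3 M), so that 1 count was worth 0.012 to 0.11 CPM. From the counts, edgeR 4.0.16 (filterByExpr by group, TMM, 1 mean per group, quasi-likelihood test, R 4.3.3) tested 16309 genes and removed 8921, and CPM were computed on effective library sizes. All 78 members passed the filter. The stress and sex tests had no term for library number, so differences by number were part of the spread behind their p-values. For library numbers the model was group plus a 2-level term. Alternatives were DESeq2 1.42.0, limma 3.58.1 voom, other scalings, no filter, subsets of libraries, and each library left out. Others added the number set or the replicate number as a term. The test was also run on simulated counts, drawn independently for each gene with the same spread for all. These held no library-number effect and no libraries standing apart, so that run does not cover these features of the data.

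Named members were a panel of 21 symbols, the 4 with the smallest p per direction in each stress comparison, the 6 largest changes by library number, and the extremes of level and spread. List genes were those with the smallest p, at most 4 per list. Rps19 and Rplp1 of the panel were described for stressed mice, a choice made after their values were seen. The members, lists, the 5 libraries and the number split were chosen with earlier results of these data known. The labels do not say that a replicate number marks a shared source, so numbers served as pairs only in an alternative. Of 55 same-numbered pairs from different groups, 42 correlated over 0.1 (median 0.312, from -0.508 to 0.835), and no value for pairs of unlike numbers is given. For 8 of 38 libraries the best match in another group had the same number. Same-numbered pairs also share a number set, whose part in this was not tested. Promoters came from RefSeq's GRCm38.p6 table and lengths and shared words from GENCODE M21. A member, left out of the plots that name genes, and a list with one of its genes are not reported here.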

Additional observations from a re-analysis of the deposited data

Results flagged for a closer look

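Of 28 combinations of a quantity and a group examined for a sample far from the others, 1 stood out, about what chance gives (1 in 20 groups). The check compares the most extreme library with the next, so high libraries in the same group can hide each other. Female control 1 and 6 had ribosomal protein shares of 1.74% and 1.77%, and female stressed 1 and 2 had 1.98% and 2.21%, without being flagged. Rpl4 in male control 3 had 885 CPM, and the next highest control male had 567, a gap of 0.625 of the group's range. Male control 3 is one of the 5 myelin-rich libraries and the shallowest, with 9.064 M counts.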

How the results depend on the processing

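In the stress and sex comparisons 0 members passed under any alternative run. The genes called between the sexes in controls were 11, and 21 with DESeq2, 30 with voom and 7 among libraries numbered up to 5. In stressed mice they were 14, and 24 with DESeq2, 8 and 6 within the number sets, and 9 to 15 with 1 library left out. The members higher by library number were 1, and 5 with voom, 11 without the 5 libraries and 8 without these and male control 7. The median interaction was -0.49, and -0.0818 among libraries numbered 6 and above. With the replicate block the members' median was 0.0538 for stressed against control females, -0.399 for males and -0.449 for the interaction, and no call of a member changed in these. Members lower by library number ran from 27 without female control 1 to 47 without female control 6. The cause of these moves was not tested. No alternative reversed a called value. Depth was 9.06 M counts in the shallowest library, and the lowest count of a member in any library was 54.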
